A study of Mus musculus with 24 samples.

Results

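Afp, Ttr, Rbp4, Trf, Apoa1, Apob, Apoe and Apom code for proteins that the yolk sac and the fetal liver release into the blood: alpha-fetoprotein, transthyretin, retinol-binding protein 4, transferrin and 4 apolipoproteins. They were taken by gene symbol from a table of normalized read counts, and all 8 were found among its 19953 genes. Mouse embryonic stem cells (mESC) lacking MLL1, MLL2 or both, related enzymes that methylate histone H3 at lysine 4, were set beside wild-type (WT) cells. RNA with polyA tails was sequenced from stem cell cultures (day 0) and from cells after 4 days of multilineage differentiation (day 4), with 3 libraries in each of 8 groups. The series title asks about MLL2 and gene control over long distances through LINE1 repeats.

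On each day the groups were Mll1-KO, Mll2-KO, double-KO and WT. Mll1-KO cells came from CRISPR deletion between a pair of guides in an earlier Mll2-KO line that Cre induces. Treatment with 800 nM 4-OHT (4-hydroxytamoxifen) for 48 hours was given to Mll2-KO and double-KO but to neither Mll1-KO nor WT cells. Loss of Mll2 and the drug therefore cannot be told apart wherever a treated group is compared with an untreated one. Double-KO against Mll2-KO compares treated cells with treated cells, and Mll1-KO against WT compares untreated cells with untreated cells. Day 0 cultures grew on gelatin with LIF in 15% fetal bovine serum, and day 4 cultures in 10% serum with 1 µM retinoic acid and no LIF named. How many clones stand for each genotype, and whether the 3 libraries of a group came from separate cultures, is not given in the sources used here, so p-values measure the spread between these libraries, which may be technical.

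Libraries held 17.7 to 22.8 M reads at day 0 and 10.7 to 17.1 M reads at day 4. Kmt2a, which codes for MLL1, averaged 29.7 ± 11.8 normalized counts in Mll1-KO and 29.8 ± 8.36 in double-KO libraries at day 0, against 1089 ± 37.8 in WT (SD, n = 3 each). At day 4 Kmt2a averaged 56.0 ± 13.7 in Mll1-KO and 104 ± 24.0 in double-KO, against 2141 ± 106 in WT. Kmt2b, which codes for MLL2, averaged 2266 to 3379 in the 8 groups, so its total count does not check the Mll2 deletion. The summed count of 13 pluripotency markers was 141300 to 161900 in day 0 libraries and 3092 to 9954 in day 4 libraries. Of 10 liver markers, 6 or 7 averaged under 10 in each day 4 group, among them Alb, at no more than 4.08 in any library, and Serpina1a, at no more than 3.07. Others were read: at day 4 the urea cycle genes Arg1 and Ass1 averaged 124 to 327 and 312 to 519 in the 4 groups. Of 15 markers of visceral endoderm, the outer layer of the early yolk sac, Cubn, Dab2, Foxa2 and Hnf4a were all read at day 4, and Cer1, which marks the anterior part of that tissue, averaged 0.678 or less in each group. In these bulk cultures fewer cells of a type and less RNA per cell cannot be told apart.

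As background, visceral endoderm and later the fetal liver secrete carriers that feed the embryo before its own circulation and liver are mature. Rbp4 protein carries retinol and travels in blood bound to transthyretin, transferrin carries iron, and alpha-fetoprotein takes the place that albumin has in adult plasma. Apob protein is the structural backbone of lipoprotein particles, Apoa1 protein that of high-density lipoprotein, and Apoe and Apom proteins ride on particles and direct their uptake or carry small lipids. Promoters of such genes are textbook targets of HNF1, HNF4, FOXA, GATA and C/EBP factors, which is why those motifs were searched.

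Promoter sequences are shown for the 4 genes whose window held a searched motif. They come from RefSeq (GRCm38.p6), run 5′ to 3′ on the strand of the gene from 250 bases before to 50 bases from the start site, and have motif matches in capitals. The windows are chr5:90490464-90490763 on the plus strand for Afp, chr9:46228380-46228679 on the plus strand for Apoa1, chr12:7977427-7977726 on the plus strand for Apob and chr19:38125272-38125571 on the minus strand for Rbp4.
Afp: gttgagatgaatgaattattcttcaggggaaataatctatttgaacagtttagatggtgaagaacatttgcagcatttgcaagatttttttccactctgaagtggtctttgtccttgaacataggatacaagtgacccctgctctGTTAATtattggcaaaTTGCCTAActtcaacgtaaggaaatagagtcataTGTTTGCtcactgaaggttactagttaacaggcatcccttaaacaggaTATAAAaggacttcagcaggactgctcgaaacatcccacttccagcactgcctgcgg
Apoa1: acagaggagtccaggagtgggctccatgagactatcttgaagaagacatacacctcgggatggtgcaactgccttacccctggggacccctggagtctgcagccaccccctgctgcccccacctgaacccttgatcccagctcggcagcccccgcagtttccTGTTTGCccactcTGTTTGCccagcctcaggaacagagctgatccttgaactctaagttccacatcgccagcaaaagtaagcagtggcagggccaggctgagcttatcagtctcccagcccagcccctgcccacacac
Apob: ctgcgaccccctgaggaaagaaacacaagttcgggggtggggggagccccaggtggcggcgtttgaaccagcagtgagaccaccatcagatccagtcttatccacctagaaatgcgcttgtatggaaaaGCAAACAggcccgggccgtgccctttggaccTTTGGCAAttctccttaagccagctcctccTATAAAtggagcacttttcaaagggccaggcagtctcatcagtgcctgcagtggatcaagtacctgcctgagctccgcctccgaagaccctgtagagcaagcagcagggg
Rbp4: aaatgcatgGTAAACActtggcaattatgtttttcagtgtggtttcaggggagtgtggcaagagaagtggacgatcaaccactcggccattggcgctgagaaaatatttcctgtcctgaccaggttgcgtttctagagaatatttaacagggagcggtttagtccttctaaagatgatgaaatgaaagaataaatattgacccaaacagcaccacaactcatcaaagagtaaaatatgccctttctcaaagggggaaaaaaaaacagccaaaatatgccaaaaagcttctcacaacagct
In the Afp window the letters GTTAAT, from the HNF1 site, began 105 bases before the start, a C/EBP match (TTGCCTAA, from TTGCNNAA) 89 bases before it, a FOXA match (TGTTTGC) 55 bases before it and TATAAA 7 bases before it. Apoa1 held TGTTTGC at both 88 and 75 bases before the start. Apob held the FOXA match on the opposite strand (GCAAACA) at 121 bases, a C/EBP match on the opposite strand (TTTGGCAA) at 90 bases and TATAAA at 60 bases. Rbp4 held only the other FOXA form, TGTTTAC, on the opposite strand (GTAAACA) at 241 bases. The HNF4 letters CAAAGTCCA and the GATA letters AGATAA matched in none of the windows, and the Apoe and Apom windows held none of the 7 motifs. Searched on both strands, the motifs were present in 7.1% (GTTAAT), 0.475% (CAAAGTCCA), 3.65% (TGTTTAC), 5.07% (TGTTTGC), 11.2% (AGATAA), 10.8% (TTGCNNAA) and 13.6% (TATAAA) of 32851 windows of the same length. A match describes the letters only. The table gave windows for 6 of the 8 genes, 3 of them for Apoe and 2 for Rbp4, and the window nearest the GENCODE start was used. Distances run from the start site of the window, which differs from the GENCODE gene start. The window and GENCODE starts are 90490714 and 90490737 for Afp, and 46228630 and 46228580 for Apoa1. They are 7977677 and 7977648 for Apob, and 38125321 and 38125281 for Rbp4.

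Compared per kilobase of exon, the 8 genes spanned a wide range of levels, and their order differed between days and genotypes. At day 0 Apoe was first in every group, at 7253, 11550, 9381 and 5677 normalized counts per kb in Mll1-KO, Mll2-KO, double-KO and WT, and Trf was second, at 110, 93.7, 31.7 and 147 per kb. The other 6 genes averaged 18.7 per kb or less in every day 0 group. At day 4 Rbp4 led in WT with 1579 ± 176 per kb beside Apoe with 1466 ± 114 (SD, n = 3). Their ranges over the same libraries overlapped, at 1383 to 1724 and 1346 to 1572, and the difference within libraries was not tested. Apoe led in the mutants, with 1140, 1511 and 1099 per kb in Mll1-KO, Mll2-KO and double-KO, and Rbp4 had 728, 248 and 63.5 per kb there. Ttr exceeded Rbp4 in Mll2-KO (298 per kb) and in double-KO (195 per kb), whereas in Mll1-KO (135 per kb) and WT (276 per kb) it was below Rbp4. Afp and Apob were the lowest of the 8 in WT, Mll1-KO and double-KO at day 4. Every library is shown in the plot of levels by genotype and day.

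**Figure D1:**
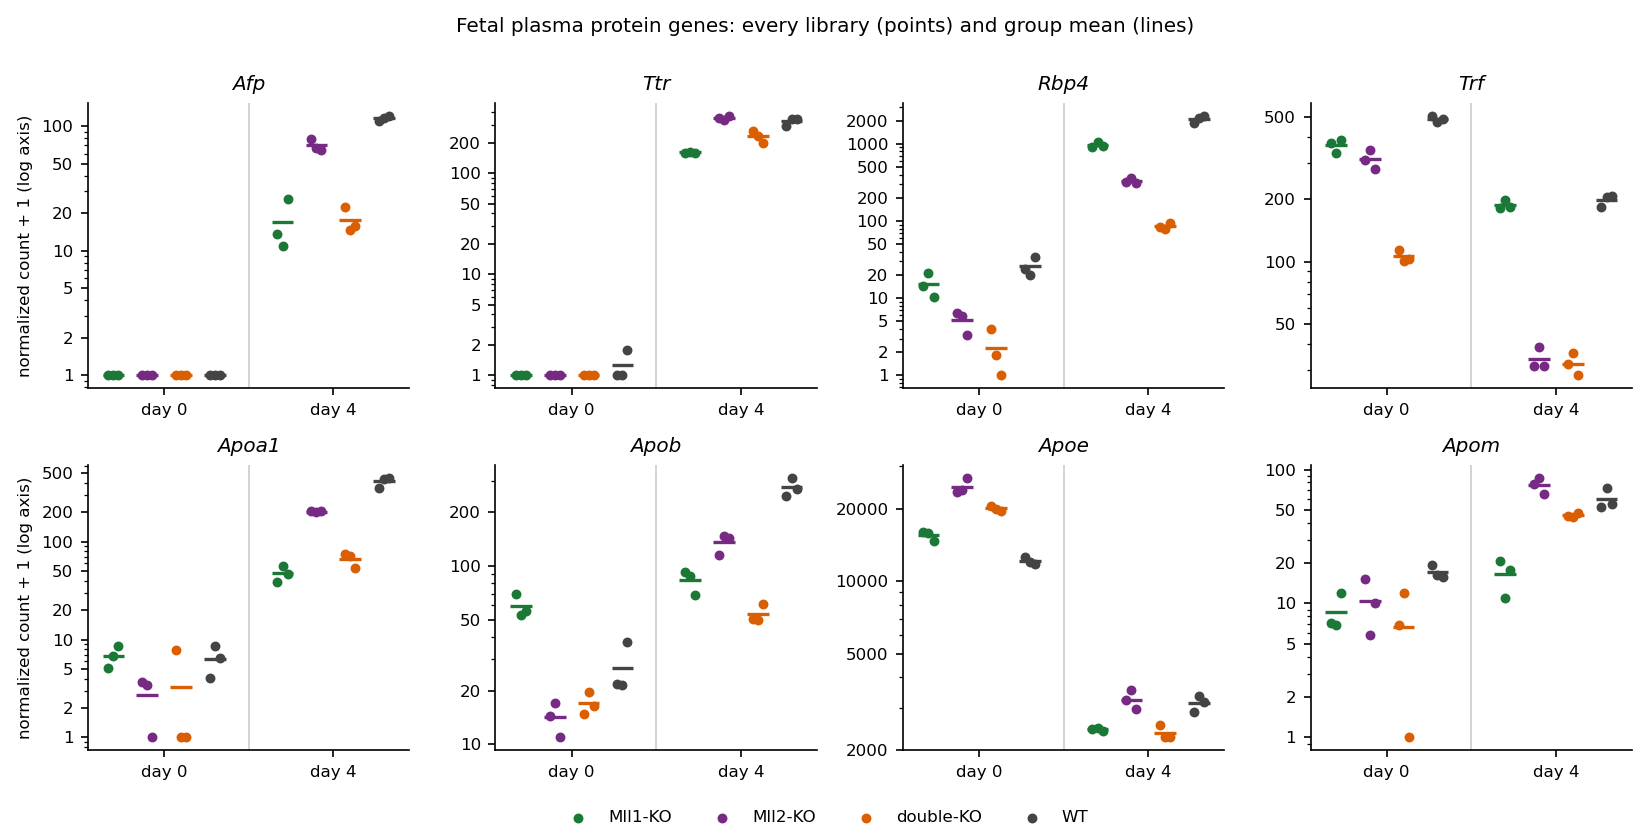
Normalized count + 1 on a log axis for the 8 genes, in Mll1-KO, Mll2-KO, double-KO and WT libraries at day 0 and day 4; points are libraries (n = 3 per group) and lines are group means. Afp lay at 0 in all 12 day 0 libraries, and Rbp4 at day 4 had 78.2 to 93.5 in double-KO libraries against 1858 to 2316 in WT.

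At day 4 most of the 8 genes were lower in the mutants than in WT. Apoa1 (8.8-fold) and Afp (7.34-fold) had the deepest falls in Mll1-KO, Rbp4 (6.35-fold) and Trf (5.91-fold) in Mll2-KO, and Rbp4 (24.6-fold) in double-KO. Mll1-KO and Mll2-KO were not tested against each other. In Mll1-KO 7 of 8 genes fell, where 19.2% of the 14303 genes tested were lower. In Mll2-KO 5 of 8 fell, where 20.3% were lower, and in double-KO 7 of 8 fell, where 23.3% were lower. No member rose past the threshold against WT. The members were chosen with earlier results of these data known, so these counts and those below describe the genes and support nothing. The median log2 difference of the 8 was -1.43, -0.87 and -2.49 in Mll1-KO, Mll2-KO and double-KO, and over all genes tested it was -0.0024, 0.04 and 0.03. Scaled to column totals the share of lower genes was 14.4%, 27.2% and 28.7% in those comparisons, and calls of the 8 genes kept their direction under both other scalings. The mutants were compared with the same 3 WT libraries, so these comparisons share their controls. Here and below, log2 differences are of log2(normalized count + 1), given ± SE, from limma with Benjamini-Hochberg adjusted p, folds are on that same scale, and each group has n = 3.

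**Figure D2:**
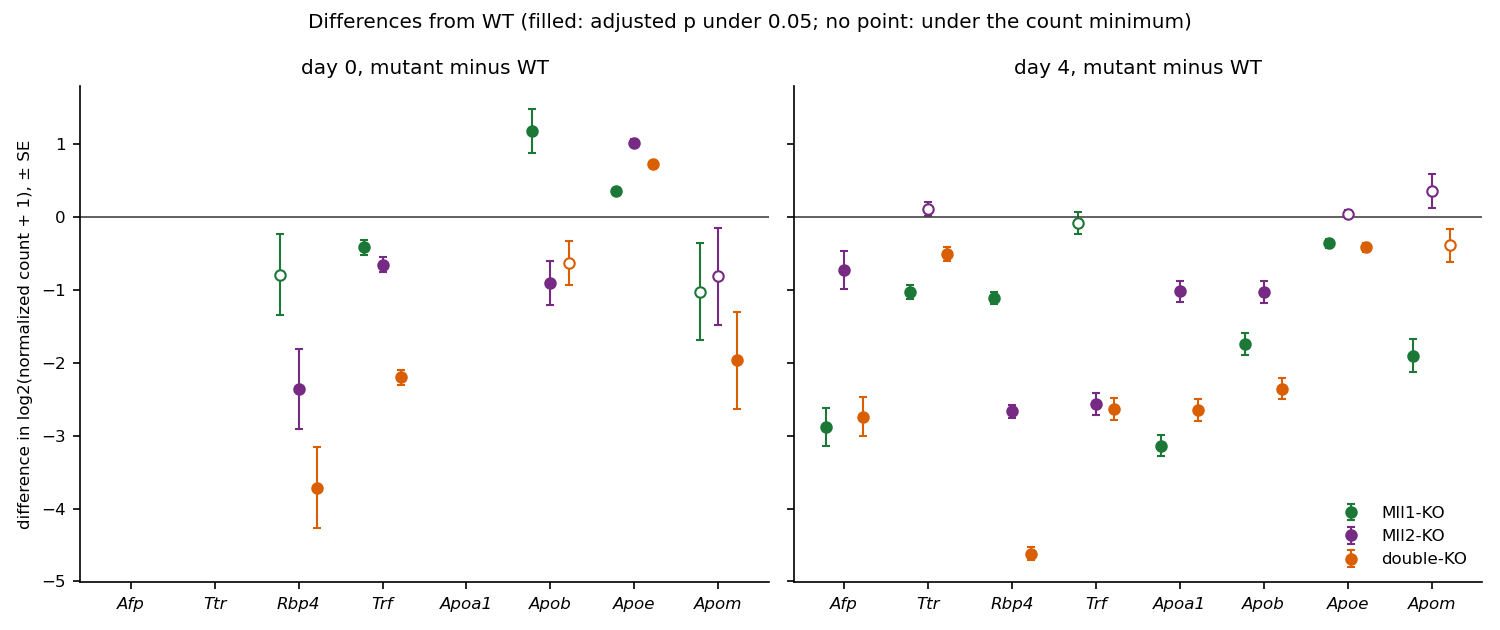
Log2 difference from WT ± SE for each gene in Mll1-KO, Mll2-KO and double-KO cells at day 0 (left) and day 4 (right); filled points have an adjusted p under 0.05, and genes without points were under the count minimum. At day 4 Rbp4 in double-KO lies lowest, at -4.62, while Apoe lies above 0 at day 0 and at or below 0.04 at day 4.

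Rbp4 (GRCm38 chromosome 19, 38116629 to 38125281, minus strand) fell in all 3 mutants. At day 4 it had 924, 1055 and 952 normalized counts in Mll1-KO, 319, 366 and 313 in Mll2-KO and 84.0, 78.2 and 93.5 in double-KO libraries, against 1858, 2186 and 2316 in WT. None of the 4 groups overlapped, and the order from low to high was double-KO, Mll2-KO, Mll1-KO, WT. Log2 differences from WT were -1.11 ± 0.09 for Mll1-KO, -2.67 ± 0.09 for Mll2-KO and -4.62 ± 0.09 for double-KO, that is 2.16-fold, 6.35-fold and 24.6-fold lower, with adjusted p of 1.8e-10, 1.2e-17 and 4.3e-23 in that order. Double-KO was also lower than each single mutant, with a log2 difference of -3.50 ± 0.09 from Mll1-KO (adjusted p = 2.6e-20) and -1.95 ± 0.09 from Mll2-KO (adjusted p = 7.6e-15).

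Trf (GRCm38 chromosome 9, 103204001 to 103230444, minus strand) was low in the groups that lack Mll2 and were given 4-OHT. At day 4 Trf had 180, 198 and 184 normalized counts in Mll1-KO, 30.4, 37.7 and 30.6 in Mll2-KO and 31.3, 35.3 and 27.4 in double-KO libraries, against 184, 206 and 206 in WT. Both groups given 4-OHT lay far below both untreated groups, and within each of those pairs the libraries overlapped. Trf fell in Mll2-KO, by 5.91-fold (-2.56 ± 0.15, adjusted p = 9.2e-13), and in double-KO, by 6.2-fold (-2.63 ± 0.15, adjusted p = 3e-13). The difference from WT in Mll1-KO was -0.08 ± 0.15 (adjusted p = 0.71), and that of double-KO from Mll2-KO was -0.07 ± 0.15 (adjusted p = 0.76). Of its exon bases 63.494% are shared with another protein-coding gene model on the same strand, Gm20425, which the table does not list, and how reads were split between them was not stated, so the Trf count is uncertain to that extent.

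Afp (GRCm38 chromosome 5, 90490737 to 90508907, plus strand) was low in both groups without MLL1. At day 4 it had 12.7, 9.93 and 25.2 normalized counts in Mll1-KO, 78.4, 66.2 and 63.3 in Mll2-KO and 21.3, 13.8 and 14.8 in double-KO libraries, against 109, 115 and 120 in WT. Mll1-KO and double-KO libraries overlapped each other, lay below Mll2-KO and lay further below WT. Afp fell in Mll1-KO, by 7.34-fold (-2.88 ± 0.26, adjusted p = 3.9e-09), and in double-KO, by 6.67-fold (-2.74 ± 0.26, adjusted p = 3.2e-09). The fall in Mll2-KO was -0.72 ± 0.26 (1.65-fold, adjusted p = 0.026), and this call was lost with no count filter (adjusted p = 0.059), with quantile scaling (0.14), with all 24 libraries in the fit (0.12), and without WT library 2 or 3 or Mll2-KO library 2 or 3 (0.066, 0.075, 0.072 and 0.085). Double-KO was lower than Mll2-KO (-2.01 ± 0.26, adjusted p = 8.7e-07), and its difference from Mll1-KO was 0.14 ± 0.26 (adjusted p = 0.68).

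Ttr, the thyroid hormone carrier and partner of Rbp4 protein, was lower than WT in Mll1-KO and double-KO at day 4. It had 159, 161 and 158 normalized counts in Mll1-KO, 354, 336 and 369 in Mll2-KO and 261, 233 and 198 in double-KO libraries, against 291, 345 and 346 in WT. Mll1-KO lay lowest, double-KO lay between it and WT, and Mll2-KO overlapped WT. Ttr fell in Mll1-KO, by 2.04-fold (-1.03 ± 0.10, adjusted p = 9.6e-09), and in double-KO, by 1.42-fold (-0.51 ± 0.10, adjusted p = 0.00013), and its difference in Mll2-KO was 0.11 ± 0.10 (adjusted p = 0.37). Double-KO was higher than Mll1-KO (0.52 ± 0.10, adjusted p = 8.5e-05) and lower than Mll2-KO (-0.62 ± 0.10, adjusted p = 1.6e-05). With all 24 libraries in the fit the double-KO calls were lost, at adjusted p of 0.13 against WT, 0.11 against Mll1-KO and 0.08 against Mll2-KO. Mll2-KO had the second lowest mean of the 4 groups for Rbp4 and the highest for Ttr.

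Apoa1 (GRCm38 chromosome 9, 46228580 to 46230466, plus strand) fell in all 3 mutants. At day 4 it had 38.0, 55.2 and 46.3 normalized counts in Mll1-KO, 203.9, 199.7 and 204 in Mll2-KO and 73.9, 70.5 and 52.5 in double-KO libraries, against 357, 437 and 449 in WT. The highest Mll1-KO library overlapped the lowest double-KO one, and these groups lay below Mll2-KO, which lay below WT. Log2 differences from WT were -3.14 ± 0.15 for Mll1-KO, -1.02 ± 0.15 for Mll2-KO and -2.65 ± 0.15 for double-KO, that is 8.8-fold, 2.03-fold and 6.27-fold lower, with adjusted p of 1.8e-14, 3.2e-06 and 1.4e-13 in that order. Double-KO was lower than Mll2-KO (-1.63 ± 0.15, adjusted p = 2.3e-09). It was higher than Mll1-KO (0.49 ± 0.15, adjusted p = 0.0065), a call lost in edgeR (adjusted p = 0.055), in DESeq2 (0.065), with all 24 libraries in the fit (0.48) and without Mll1-KO library 1 (0.05). The Mll2-KO fall was likewise lost with all 24 libraries in the fit (adjusted p = 0.14).

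Apob (GRCm38 chromosome 12, 7977648 to 8016835, plus strand) also fell in all 3 mutants, most in double-KO. At day 4 it had 91.4, 87.2 and 67.3 normalized counts in Mll1-KO, 115, 147 and 142 in Mll2-KO and 49.3, 49.1 and 60.5 in double-KO libraries, against 246, 311 and 269 in WT. No groups overlapped. Log2 differences from WT were -1.74 ± 0.15 for Mll1-KO, -1.03 ± 0.15 for Mll2-KO and -2.36 ± 0.15 for double-KO, that is 3.34-fold, 2.04-fold and 5.12-fold lower, with adjusted p of 1e-09, 3e-06 and 1.4e-12 in that order. Double-KO was lower than Mll2-KO (-1.33 ± 0.15, adjusted p = 7.2e-08) and lower than Mll1-KO (-0.62 ± 0.15, adjusted p = 0.001), and with quantile scaling the call against Mll1-KO was lost (adjusted p = 0.16).

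Apom (GRCm38 chromosome 17, 35128997 to 35132050, minus strand), the carrier of sphingosine 1-phosphate on high-density lipoprotein, fell in Mll1-KO, while its differences from WT in Mll2-KO and double-KO did not pass the threshold. At day 4 it had 19.7, 9.93 and 16.8 normalized counts in Mll1-KO, 77.4, 85.6 and 64.4 in Mll2-KO and 43.7, 42.9 and 46.8 in double-KO libraries, against 51.8, 71.2 and 54.2 in WT. Mll1-KO lay below every other group, double-KO lay between it and WT, and Mll2-KO overlapped WT. Log2 differences from WT were -1.90 ± 0.23 for Mll1-KO (3.74-fold lower), 0.36 ± 0.23 for Mll2-KO and -0.39 ± 0.23 for double-KO, with adjusted p of 4e-07, 0.21 and 0.16 in that order. Quantile scaling brought the Mll2-KO difference past the threshold (0.67, adjusted p = 0.022). Double-KO was higher than Mll1-KO (1.51 ± 0.23, adjusted p = 4.8e-06). It was lower than Mll2-KO (-0.75 ± 0.23, adjusted p = 0.011), a call lost with all 24 libraries in the fit (adjusted p = 0.31) and without Mll2-KO library 2 (0.059).

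Apoe (GRCm38 chromosome 7, 19696109 to 19699188, minus strand), a ligand of the lipoprotein receptors, changed by a small fold at day 4. It had 2443, 2464 and 2405 normalized counts in Mll1-KO, 3218, 3531 and 2945 in Mll2-KO and 2535, 2258 and 2254 in double-KO libraries, against 2878, 3360 and 3168 in WT. Mll1-KO and double-KO lay below both other groups, and Mll2-KO overlapped WT. Apoe fell in Mll1-KO, by 1.28-fold (-0.36 ± 0.06, adjusted p = 3.1e-05), and in double-KO, by 1.33-fold (-0.42 ± 0.06, adjusted p = 2.1e-06), and differed by 0.04 ± 0.06 in Mll2-KO (adjusted p = 0.59). Double-KO was lower than Mll2-KO (-0.46 ± 0.06, adjusted p = 8.3e-07), and its difference from Mll1-KO was -0.06 ± 0.06 (adjusted p = 0.45).

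Loss of Mll1 was measured both without drug, as Mll1-KO against WT, and within 4-OHT-treated cells, as double-KO against Mll2-KO, which share no library. Whether Mll1-KO and double-KO cells came from the same Mll1-deleted clone is not given in the sources used here. These measurements may therefore not be independent, and a difference of that clone could appear in both. In double-KO against Mll2-KO at day 4, 7 of 8 genes fell, where 20.9% of genes were lower, with a median of -1.04 beside -0.0083 over all genes. The genes that fell were Afp, Apoa1, Apob, Apoe, Apom, Rbp4 and Ttr in both measurements, with Trf at -0.08 and -0.07. In double-KO against Mll1-KO 6 of 8 were called, 3 lower (Rbp4, Trf and Apob) and 3 higher (Apom, Ttr and Apoa1), where 54.8% of genes were called in either direction. The test of the difference itself, double-KO minus Mll1-KO set against Mll2-KO minus WT and termed non-additivity, called 3 of 8 genes, where 13.6% of genes were called. For Rbp4 the loss of both went further down than the sum of the single differences (-0.84 ± 0.12, adjusted p = 4.2e-05). Apoa1 (1.51 ± 0.21, adjusted p = 2.4e-05) and Apom (1.15 ± 0.33, adjusted p = 0.019) lay above that sum. The difference was 0.41 ± 0.14 for Ttr (adjusted p = 0.052), 0.86 ± 0.37 for Afp (0.13), 0.41 ± 0.21 for Apob (0.2), -0.10 ± 0.08 for Apoe (0.48) and 0.02 ± 0.21 for Trf (0.97). With all 24 libraries in the fit none of the 3 calls held (adjusted p of 0.31 for Rbp4, 0.25 for Apoa1 and 0.4 for Apom). Quantile scaling brought Ttr (0.53, adjusted p = 0.014) and Apob (0.68, adjusted p = 0.032) past the threshold, edgeR did so for Ttr (0.038), and leaving out Mll1-KO library 3 did so for Afp (1.23, adjusted p = 0.015). The Apom call was also lost with no count filter (0.051), without WT library 2 (0.063), without Mll1-KO library 2 (0.058) and without Mll2-KO library 3 (0.05). The plot of single losses with and without the other mutation shows these values.

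**Figure D3:**
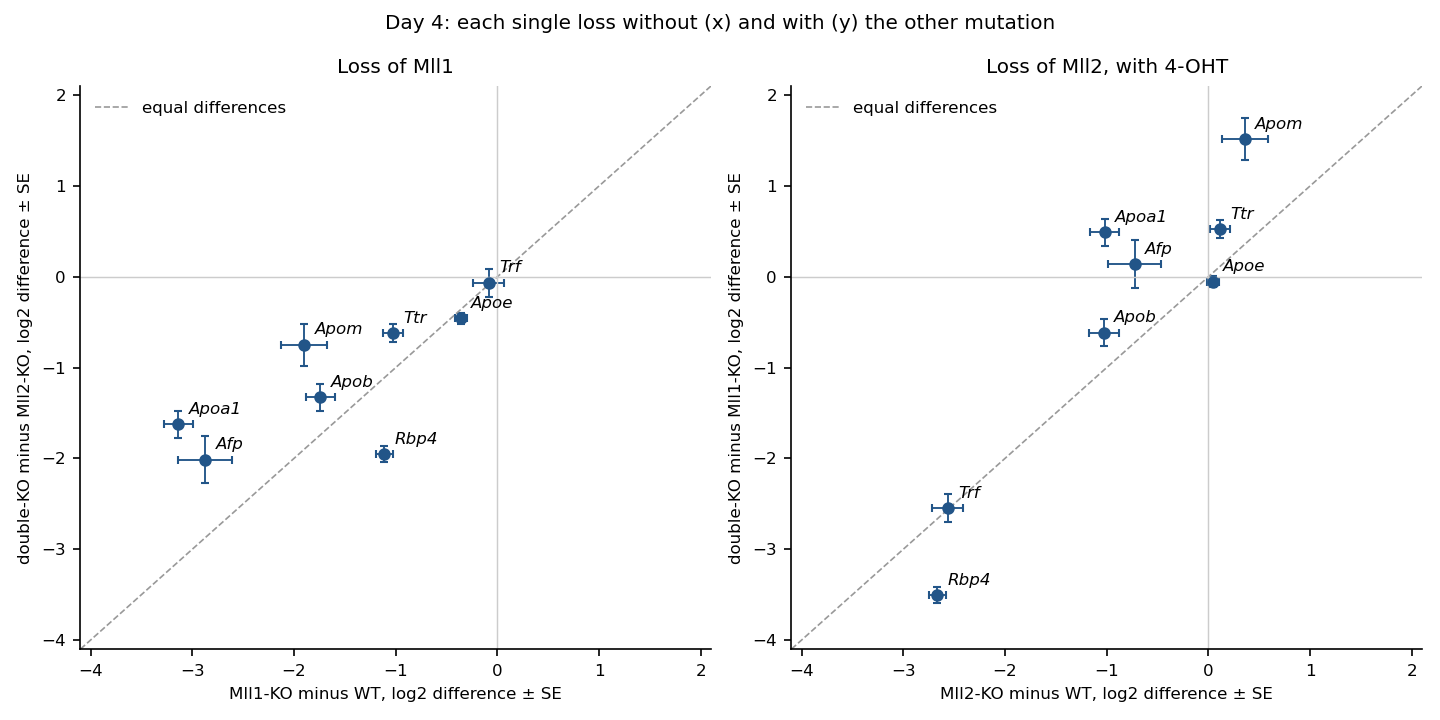
Day 4 log2 differences ± SE of each gene for the same loss without (x) and with (y) the other mutation; left, Mll1 loss as Mll1-KO minus WT and double-KO minus Mll2-KO; right, Mll2 loss with 4-OHT as Mll2-KO minus WT and double-KO minus Mll1-KO; the dashed line marks equal differences. Rbp4 lies below the line and Apoa1 and Apom above it, while Trf lies on it. The height of a gene above or below the line is the same in both panels by construction.

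At day 0 only 5 of the 8 genes passed the count minimum of 10 in 3 libraries: Apoe, Trf, Rbp4, Apob and Apom. Afp had no reads in any of the 12 libraries. Ttr had 1 read, in a WT library. Apoa1 had 0 to 7.59 normalized counts across the 12 libraries. In Mll1-KO against WT 3 of the 5 were called, where 40% of 13984 genes were called in either direction. In Mll2-KO against WT 4 of 5 were called beside 47.2% of genes, and in double-KO against WT 4 of 5 beside 53.7%. Because a gene such as Rbp4 passed through the groups where it was high, these counts describe the genes and support nothing.

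Apoe was the one member that was higher in every mutant at day 0. It had 16020, 15800 and 14700 normalized counts in Mll1-KO, 23430, 23810 and 26830 in Mll2-KO and 20530, 19990 and 19650 in double-KO libraries, against 12600, 11990 and 11820 in WT. No groups overlapped. Log2 differences from WT were 0.35 ± 0.05 for Mll1-KO, 1.02 ± 0.05 for Mll2-KO and 0.72 ± 0.05 for double-KO, that is 1.28-fold, 2.03-fold and 1.65-fold higher, with adjusted p of 1.4e-05, 5.7e-12 and 3.8e-10 in that order. Double-KO stood between the single mutants, higher than Mll1-KO (0.37 ± 0.05, adjusted p = 1.1e-05) and lower than Mll2-KO (-0.30 ± 0.05, adjusted p = 7.3e-05).

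Trf was lower in all 3 mutants at day 0, and Rbp4 in Mll2-KO and double-KO. Trf had 374, 335 and 387 normalized counts in Mll1-KO, 309, 345 and 279 in Mll2-KO and 113, 100.2 and 102 in double-KO libraries, against 505, 470.1 and 486 in WT. Every mutant library lay below WT, and double-KO lay below both single mutants. Its log2 differences from WT were -0.42 ± 0.10 for Mll1-KO, -0.65 ± 0.10 for Mll2-KO and -2.20 ± 0.10 for double-KO, with adjusted p of 0.0021, 2.1e-05 and 3.5e-13 in that order. Rbp4 had 13.4, 20.5 and 9.28 in Mll1-KO, 5.37, 4.84 and 2.29 in Mll2-KO and 2.96, 0.842 and 0 in double-KO libraries, against 23.0, 19.0 and 33.4 in WT. At these few reads its difference from WT was -2.36 ± 0.55 in Mll2-KO (adjusted p = 0.0016) and -3.71 ± 0.55 in double-KO (adjusted p = 1.1e-05), and -0.79 ± 0.55 in Mll1-KO (adjusted p = 0.27).

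In double-KO against Mll1-KO at day 0 4 of 5 genes were called, where 41% of genes were called in either direction: Trf (-1.78 ± 0.10, adjusted p = 8.9e-11), Rbp4 (-2.92 ± 0.55, adjusted p = 3e-04) and Apob (-1.81 ± 0.30, adjusted p = 8.6e-05) were lower and Apoe was higher. In double-KO against Mll2-KO 3 of 5 were lower, where 24.3% of genes were lower: Trf (-1.55 ± 0.10, adjusted p = 1.5e-10), Apoe and Rbp4 (-1.36 ± 0.55, adjusted p = 0.049). The Rbp4 call was lost with a pseudocount of 5 (adjusted p = 0.16), with quantile scaling (0.24), in edgeR (0.1), in DESeq2 (0.096) and without any of 4 libraries in turn, namely Mll2-KO 1 and 2 (0.14 and 0.12) and double-KO 2 and 3 (0.084 and 0.2). Non-additivity was called for 2 of 5, where 9.13% of genes were called in either direction and 4.71% lower: Trf (-1.13 ± 0.14, adjusted p = 1.9e-05) and Apoe (-0.65 ± 0.07, adjusted p = 4.5e-06), both below the sum of the single differences.

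Apob was the member that the single losses moved in opposite directions at day 0. It had 68.9, 51.7 and 54.8 normalized counts in Mll1-KO, 13.4, 16.1 and 9.91 in Mll2-KO and 13.8, 18.5 and 15.5 in double-KO libraries, against 20.7, 20.5 and 36.5 in WT. Mll1-KO lay above every other group and both 4-OHT-treated groups below WT. Apob rose by 1.19 ± 0.30 in Mll1-KO (2.28-fold, adjusted p = 0.0036) and fell in Mll2-KO (-0.90 ± 0.30, adjusted p = 0.019), a call lost with quantile scaling (adjusted p = 0.099), without WT library 3 (0.13) and without Mll2-KO library 3 (0.085). In double-KO it was -0.63 ± 0.30 (adjusted p = 0.088). Apom had 6.17, 5.86 and 11.0 in Mll1-KO, 14.3, 4.84 and 9.15 in Mll2-KO and 5.92, 10.9 and 0 in double-KO libraries, against 18.4, 15.2 and 14.8 in WT. Its called difference, in double-KO (-1.97 ± 0.67, adjusted p = 0.018), was lost with quantile scaling (0.11), without WT library 1 (0.055) and without double-KO library 3 (0.15), which reads 0 for this gene.

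Between the days, 6 of the 8 genes were higher and Apoe and Trf were lower at day 4 than at day 0 in WT. All 8 were called in WT, where 82.9% of 15114 genes were called in either direction, and 6, 8 and 8 were called in Mll1-KO, Mll2-KO and double-KO, where 84.1%, 81.5% and 83.3% were, so the counts stand near the background. Rbp4 averaged 2120 at day 4 against 25.1 at day 0 in WT (83-fold, 6.38 ± 0.33, adjusted p = 3.1e-16) and Apoa1 414 against 5.37 (67.9-fold, 6.09 ± 0.53, adjusted p = 2.9e-11). Apob averaged 275 against 25.9 (10.6-fold, adjusted p = 8.1e-14) and Apom 59.1 against 16.1 (1.80 ± 0.53, adjusted p = 0.0029). Apoe averaged 3135 against 12130 (3.88-fold lower, -1.96 ± 0.06, adjusted p = 3.8e-21) and Trf 199 against 487 (2.45-fold lower, -1.29 ± 0.12, adjusted p = 1.4e-10). Scaling to column totals moved the median of all genes in the 4 day comparisons to between 0.06 and 0.30, and quantile scaling to between -0.12 and -0.11, beside 0.03 to 0.06 as deposited.

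Afp at day 4, against a floor of 3 counts per library at day 0, was at least 5.6-fold higher in Mll1-KO, 28.1-fold higher in Mll2-KO, 6.19-fold higher in double-KO and 49.8-fold higher in WT. For Ttr the bounds were at least 56-fold in Mll1-KO, 143-fold in Mll2-KO and 85.9-fold in double-KO, and in WT the ratio to its 1 read was 1280, with a 95% exact Poisson interval of 230 to 50500 that covers counting error only. With these genes at their bounds the median day difference of the 8 was 1.70, 4.04 and 3.01 in Mll1-KO, Mll2-KO and double-KO, and 4.52 in WT with Ttr as fitted. The gain of Apoa1 between days was 2.81 ± 0.53 in Mll1-KO, 6.45 ± 0.53 in Mll2-KO and 5.05 ± 0.53 in double-KO, beside 6.09 ± 0.53 in WT. These gains rest on few reads at day 0, where Apoa1 averaged 5.85, 1.70 and 2.30 in those mutants and 5.37 in WT. At day 4 it averaged 46.5, 202.5 and 65.6, against 414 in WT, so the larger Mll2-KO gain reflects its lower day 0 mean. In Mll1-KO the day differences of Apob (0.48 ± 0.23, adjusted p = 0.052) and Apom (0.93 ± 0.53, adjusted p = 0.11) did not pass the threshold. The Apob difference passed under 7 settings, among them edgeR (0.016) and DESeq2 (0.021), and that of Apom under 4, namely a pseudocount of 5 (0.034), column totals (0.046), another set of libraries in the fit (0.041) and DESeq2 (0.038).

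The day-by-genotype term, which tests whether a mutant's difference from WT at day 4 differs from that at day 0, was lower for 4 of 8 genes in Mll1-KO, where 19% of genes were lower. These were Apoa1 (-3.28 ± 0.75, adjusted p = 0.0012), Apob (-2.93 ± 0.32, adjusted p = 6.9e-08), Afp (-2.88 ± 0.51, adjusted p = 8.3e-05) and Apoe (-0.71 ± 0.09, adjusted p = 4e-07). In Mll2-KO it was lower for Trf (-1.91 ± 0.17, adjusted p = 2.1e-09) and Apoe (-0.98 ± 0.09, adjusted p = 1.7e-09), 2 of 8 genes where 17% of genes were lower. In double-KO it was lower for Afp (-2.74 ± 0.51, adjusted p = 0.00011), Apob (-1.73 ± 0.32, adjusted p = 9.1e-05), Apoe (-1.14 ± 0.09, adjusted p = 5.7e-11) and Trf (-0.43 ± 0.17, adjusted p = 0.048), 4 of 8 where 19.2% of genes were lower. Since Afp had no reads at day 0, its term is its day 4 difference, and the count models did not call it (adjusted p of 1 in edgeR, and 0.14 and 0.16 in DESeq2). The Trf term in double-KO was lost under 4 settings and without each of 9 libraries in turn, with adjusted p from 0.051 to 0.13. Other terms passed only under an alternative. In double-KO that of Rbp4 (-0.90 ± 0.47, adjusted p = 0.13) was -2.29 with a pseudocount of 5 (adjusted p = 1.6e-07), -1.79 with quantile scaling (0.0037) and -1.38 without day 0 double-KO library 3 (0.0092), and that of Apom (1.58 ± 0.75, adjusted p = 0.097) was 2.31 without day 0 double-KO library 2 (0.009). The double-KO term of Apoa1 (-1.04 ± 0.75, adjusted p = 0.29) was -1.97 with a pseudocount of 5 (8.4e-05). With that pseudocount the term of Rbp4 in Mll2-KO was -0.95 (0.0091), beside -0.31, and that of Ttr in Mll1-KO was -0.94 (0.002), beside -0.75. The 3 terms share the WT libraries of both days.

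Markers of the tissue that makes these proteins moved too, and their part in the results was not tested. Counts of list genes at day 4, here and below, are to be read beside the shares of all genes tested. In Mll1-KO 19.2% were lower and 16.5% higher, in Mll2-KO 20.3% and 25.4%, and in double-KO 23.3% and 27.6%. The summed count of 15 visceral endoderm markers at day 4 was 9514 to 10650 in Mll1-KO, 29190 to 30950 in Mll2-KO and 15550 to 16070 in double-KO libraries, against 22560 to 23260 in WT. In Mll1-KO 11 of 14 tested markers fell and 0 rose (median -0.83), in Mll2-KO 1 fell and 9 rose (median 0.36), and in double-KO 8 fell and 2 rose (median -0.29). A large part of these sums is 1 gene, Cubn. It averaged 4595 in Mll1-KO, 16130 in Mll2-KO and 7139 in double-KO, against 12810 in WT. Among the markers Amn, which with Cubn forms a receptor for Apoa1 and transferrin, fell in Mll1-KO (15.2 against 59.9 in WT, -1.92 ± 0.23, adjusted p = 3e-07), and the homeobox gene Rhox5 was lower in Mll1-KO (-1.48 ± 0.07) but higher in Mll2-KO (1.96 ± 0.07) and double-KO (1.47 ± 0.07). The 14 parietal endoderm markers summed to 186100 to 189800 in Mll1-KO, 435200 to 445100 in Mll2-KO and 274300 to 283100 in double-KO, against 307500 to 316000 in WT, with 9, 1 and 6 lower and 1, 12 and 5 higher, or 8, 1 and 7 lower and 1, 9 and 3 higher scaled to column totals. At day 0 the visceral sums were 1659 to 1796 in Mll1-KO, 5973 to 6650 in Mll2-KO and 1716 to 2026 in double-KO, against 6791 to 7351 in WT. Of 13 markers 12, 2 and 12 were lower in those mutants at day 0, where 18.7%, 24.3% and 27.1% of genes were lower.

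**Figure D4:**
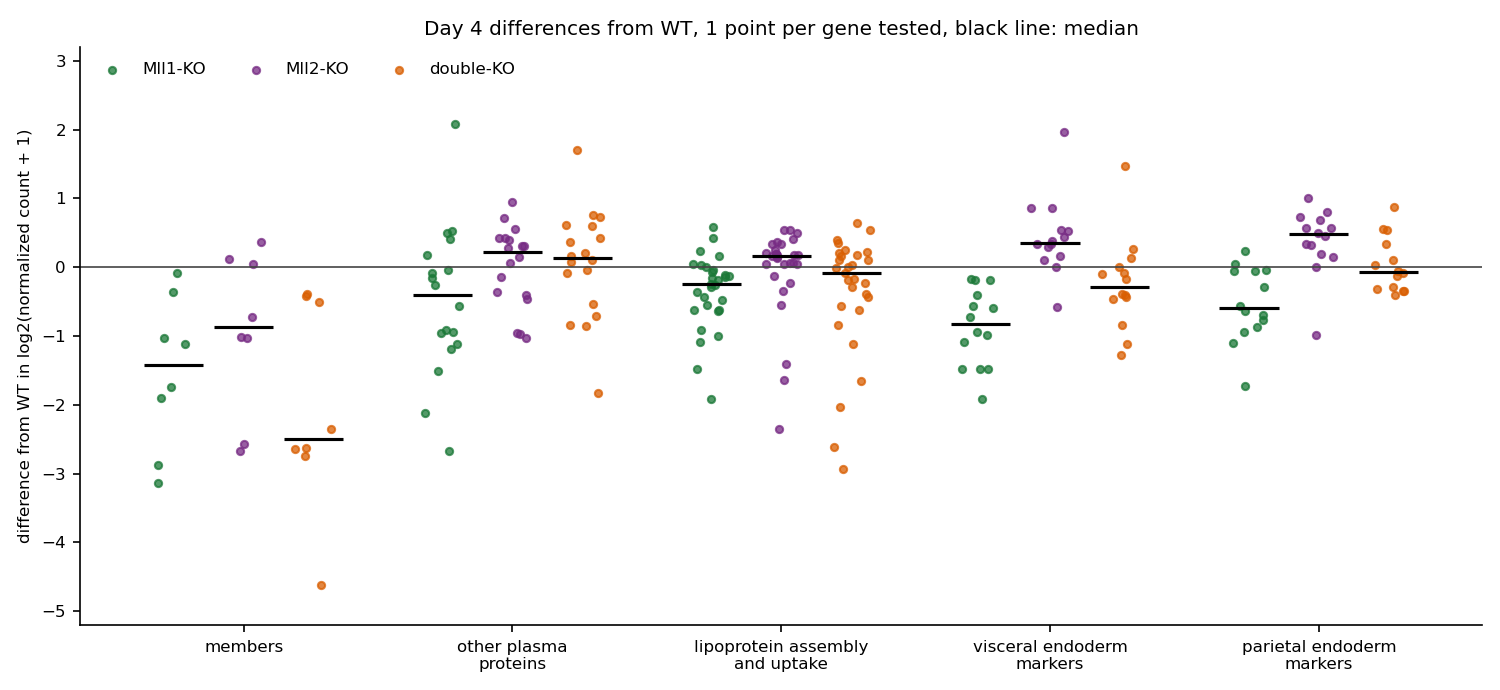
Day 4 log2 differences from WT in Mll1-KO, Mll2-KO and double-KO for the 8 genes (members) and for genes of 4 related lists, 1 point per gene tested and black lines at medians. The 8 genes have medians of -1.43, -0.87 and -2.49, and the visceral endoderm markers -0.83, 0.36 and -0.29.

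Other genes of these pathways did not share 1 direction. Of 18 other plasma protein genes tested at day 4, 9 fell and 2 rose in Mll1-KO, 4 fell and 1 rose in Mll2-KO, and 4 fell and 5 rose in double-KO, with medians of -0.41, 0.22 and 0.13. The 4 lower in Mll2-KO, and the 4 lower and 5 higher in double-KO, stand near the shares of all genes. Serpinf2, the plasmin inhibitor, fell in Mll1-KO (54.0 against 154 in WT, -1.51 ± 0.18, adjusted p = 3e-07), and Clu, a secreted chaperone, fell in Mll2-KO (7425 against 15230 in WT, -1.04 ± 0.04, adjusted p = 7.1e-17). With quantile scaling 3 of the 18 fell and 7 rose in Mll2-KO (median 0.41), and 2 fell and 7 rose in double-KO (median 0.38). Of 29 genes of lipoprotein assembly and uptake, 15 fell and 3 rose in Mll1-KO, 4 fell and 12 rose in Mll2-KO (5 and 6 scaled to column totals), and 12 fell and 7 rose in double-KO, with medians of -0.24, 0.16 and -0.08. Cubn averaged 4595 in Mll1-KO against 12810 in WT (-1.48 ± 0.05, adjusted p = 8.8e-17). Lpl, which splits the triglyceride of lipoproteins, averaged 84.4 in Mll2-KO (-1.64 ± 0.13, adjusted p = 8.2e-11) and 33.9 in double-KO (-2.94 ± 0.13, adjusted p = 9.2e-16), against 266 in WT.

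Of 14 genes of iron transport tested at day 4, 6 fell and 0 rose in Mll1-KO, 3 fell and 9 rose in Mll2-KO (4 and 5 scaled to column totals), and 4 fell and 7 rose in double-KO. Beside the fall of Trf in the 4-OHT-treated groups, the ferrireductase gene Steap3 rose in Mll2-KO (0.72 ± 0.16, adjusted p = 0.00046) and in double-KO (0.63 ± 0.16, adjusted p = 0.0015), and the iron exporter gene Slc40a1 fell in Mll2-KO (-0.51 ± 0.06, adjusted p = 1.7e-07). Of 17 genes of retinol transport and metabolism, 3 fell and 7 rose in Mll1-KO, 7 fell and 6 rose in Mll2-KO (8 and 2 scaled to column totals), and 7 fell and 5 rose in double-KO (8 and 3 scaled to column totals). Aldh1a2, which makes retinoic acid, averaged 664 in Mll1-KO, 45.1 in Mll2-KO and 37.0 in double-KO, against 414 in WT. Its log2 differences were 0.68 ± 0.12, -3.17 ± 0.12 and -3.46 ± 0.12, with adjusted p of 9.7e-05, 3e-16 and 3.5e-17 in that order.

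Of 28 hepatic and endodermal transcription factors tested at day 4, 17 fell and 1 rose in Mll1-KO, 3 fell and 11 rose in Mll2-KO (7 and 10 scaled to column totals), and 10 fell and 5 rose in double-KO, with medians of -0.46, 0.08 (-0.01 scaled to column totals) and -0.07. Hnf4a, a regulator of apolipoprotein genes in liver, averaged 73.1 in Mll1-KO against 146 in WT (-0.98 ± 0.12, adjusted p = 5.5e-07). In double-KO, where Apoa1 and Apob were also low, Hnf4a averaged 136, higher than in Mll1-KO (0.89 ± 0.12, adjusted p = 9.5e-07). Sox7 fell in Mll1-KO (-1.38 ± 0.09, adjusted p = 1.4e-11) and rose in Mll2-KO (1.09 ± 0.09, adjusted p = 6.3e-10). Zhx2, known in mouse liver as a repressor of Afp after birth, averaged 80.1 in Mll2-KO (-1.81 ± 0.13, adjusted p = 3.7e-11) and 62.3 in double-KO (-2.19 ± 0.13, adjusted p = 7.4e-13), against 284 in WT. Of 5 liver markers that passed the count minimum, 1 fell and 1 rose in Mll1-KO and in Mll2-KO, and 2 fell and 2 rose in double-KO. In Mll1-KO and Mll2-KO these counts stand near the shares of all genes.

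Of the genes next to the members, Alb and Apoc3 were near 0, and Apoa4 and Apoc1 were read at day 4. Alb, 14.13 kb from Afp, averaged 1.77 or less in every group. Apoc3, 2.47 kb from Apoa1, averaged 2.13 or less. Apoa4, 10.23 kb from Apoa1 and overlapped by antisense gene models, averaged 33.9 in Mll1-KO, 78.8 in Mll2-KO and 97.5 in double-KO against 63.5 in WT at day 4, where Apoa1 was lower in all 3 mutants. Apoc1, 3.45 kb from Apoe, averaged 38.2 in Mll1-KO at day 4 against 75.4 in WT (-0.96 ± 0.18, adjusted p = 0.00014).

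How alike the members' profiles were depended on whether the days were pooled. Across all 24 libraries, which share the large day difference, Pearson's r was 0.951 for Afp with Apoa1, 0.881 for Rbp4 with Ttr, -0.965 for Apoe with Ttr and -0.234 for Rbp4 with Trf. Within the 12 day 4 libraries the same pairs had r of 0.956, 0.0613, 0.825 and 0.898. Rbp4 and Trf also had r = 0.878 within the 12 day 0 libraries. Among genes outside the 8 with a mean of at least 50 in their highest group, the genes most like the mean profile of the 8 over 24 libraries were Iqgap2 (r = 0.97), H1f0 (0.956), Sfrp5 (0.954), Kif21a (0.946) and Ocln (0.946). That mean pools Apoe and Trf, which fell between the days in WT, with members that rose. Likeness to it therefore need not hold for each member, and it shares the day difference. Sfrp5 averaged 648 in Mll1-KO, 721 in Mll2-KO and 213 in double-KO against 1167 in WT at day 4. The gene most like each member was Rassf3 for Afp (0.983), Ugdh for Apoa1 (0.969), Epb41l3 for Apob (0.935), Slc1a5 for Apoe (0.995), 2810459M11Rik for Apom (0.918), Tspan6 for Rbp4 (0.979), Sesn3 for Ttr (0.997) and Nxt2 for Trf (0.967), each the highest of 12849 genes. Nxt2 averaged 176 in Mll1-KO, 32.7 in Mll2-KO and 11.7 in double-KO against 183 in WT at day 4.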

How the data were processed

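The deposited table holds gene values normalized by the authors, recorded here as signal: reads per gene divided by 1 size factor per library. When each library was divided by the value of 1 read in it, 100% of its entries fell within 1e-06 of a whole number, and these recovered reads went into the count models; no column was without a sample. Per the submitters' processing notes, tools included STAR 2.7.10a and RSEM 1.3.1, with Trim Galore 3.4, FastQC, SAMtools 1.13 and DESeq2 1.34.0, and the build was mm10; the gene annotation, and how RSEM shared reads between overlapping models, are not given in the sources used here. An extra letter in the headers of 3 columns is explained by no label; being the only WT columns of their day, they were read as day 0 WT.

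Values were tested with limma 3.58.1 (R 4.3.3, with a trend) on log2(normalized count + 1), keeping genes that reached 10 in 3 or more libraries (13984 at day 0, 14303 at day 4, 15114 across days), fitting the 12 libraries of a day or all 24 across days. Benjamini-Hochberg adjustment ran over all genes tested, and a gene was called below 0.05. Each fit was repeated in edgeR 4.0.16 (TMM) and DESeq2 1.42.0, with pseudocounts of 0.5 and 5, with a minimum of 50 or none, scaled by quantiles or by column totals, with a replicate block, with a different set of libraries fitted together, and leaving out each library; fits without day 0 WT were added after seeing the data. Same-numbered libraries of different groups had a median residual correlation of 0.00304 (highest 0.0768), so no strong effect shared by number was seen. Whether a number marks a shared culture or day is not stated, and these values cannot decide it. Chi-square per degree of freedom between replicates showed no library to be a copy of another. The pipeline was also run on simulated data in which far fewer genes differed than were called here, so that run supports none of the results. The members and lists were chosen with earlier results of these data known. From each list the text may name, per comparison, up to 2 called genes that rose most and 2 that fell most, if the higher of their group means reached 50; Alb, Serpina1a, Arg1, Ass1, Cer1, Apoc3 and levels of Dab2, Foxa2, Apoa4 and Apoc1 beyond that serve as markers or neighbours. Positions come from GENCODE mouse release 21 (GRCm38) and promoters from RefSeq; lists of pluripotency, neural, mesoderm and fibroblast, and trophectoderm markers were also summed.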

Additional observations from a re-analysis of the deposited data

Results flagged for a closer look

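Tests of a difference between differences passed the threshold for the values below, which are log2 differences ± SE from limma with Benjamini-Hochberg adjusted p, and nothing was tested as to why. At day 0 the non-additivity of the mutations was -0.65 ± 0.07 for Apoe (adjusted p = 4.5e-06) and -1.13 ± 0.14 for Trf (1.9e-05). At day 4 it was 1.51 ± 0.21 for Apoa1 (2.4e-05), 1.15 ± 0.33 for Apom (0.019) and -0.84 ± 0.12 for Rbp4 (4.2e-05). The difference from WT changed between day 0 and day 4 in Mll1-KO by -2.88 ± 0.51 for Afp (8.3e-05), -3.28 ± 0.75 for Apoa1 (0.0012), -2.93 ± 0.32 for Apob (6.9e-08) and -0.71 ± 0.09 for Apoe (4e-07). In Mll2-KO it changed by -0.98 ± 0.09 for Apoe (1.7e-09) and -1.91 ± 0.17 for Trf (2.1e-09). In double-KO it changed by -2.74 ± 0.51 for Afp (0.00011), -1.73 ± 0.32 for Apob (9.1e-05), -1.14 ± 0.09 for Apoe (5.7e-11) and -0.43 ± 0.17 for Trf (0.048). Some of these calls did not hold under the alternatives. The day 4 non-additivity calls were lost with all 24 libraries in the fit (0.25 for Apoa1, 0.4 for Apom and 0.31 for Rbp4). The Afp changes were not called in edgeR or in DESeq2 (0.14 in Mll1-KO and 0.16 in double-KO). The Trf change in double-KO was lost with the replicate block (0.051) and in DESeq2 (0.095), among others. Apob stands out in Mll1-KO, where it was 2.28-fold higher than WT at day 0 and 3.34-fold lower at day 4, and Apoe in all mutants was higher than WT at day 0.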

How the results depend on the processing

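Of 2385 values of single genes under the alternatives, 2290 kept their side of the threshold, 56 lost and 39 gained the call. None of the values called in at least 1 of the 2 fits compared reversed its direction. The direction of values called in neither fit was not compared, and genes that an alternative filter removed were not counted. The number of the 8 genes called in double-KO against WT at day 0 was 2 with a minimum of 50, which tests fewer of them, beside 4. For non-additivity at day 4 it was 5 with quantile scaling and 0 with all 24 libraries in the fit, beside 3. It was 3 for Mll2-KO against WT at day 4 with all 24 libraries in the fit, beside 5, and 2 for the change of double-KO against WT between days in DESeq2, beside 4; the causes were not tested. With the replicate block 1 call changed, that of Trf in the last comparison (-0.43, adjusted p = 0.051), leaving 3 genes called. In the fits across days Apoa1 and Apom, with few reads at day 0, had the widest errors (SE of 0.53 each between days). The day 0 and day 4 libraries differ in depth, and the drug and loss of Mll2 cannot be told apart.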

Other observations

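Other cell type markers also differed at day 4. Of 12 pluripotency genes tested, 11 fell and 0 rose in Mll1-KO (median -1.01), 1 fell and 7 rose in Mll2-KO (0.38), and 6 fell and 2 rose in double-KO (-0.26). Pou5f1 averaged 313 in Mll1-KO (-1.61 ± 0.09, limma adjusted p = 5.5e-13) and 2371 in Mll2-KO (1.31 ± 0.09, adjusted p = 1.7e-11), against 958 in WT. The summed count of 14 mesoderm and fibroblast markers was 21850 to 25680 in Mll1-KO, 25490 to 30670 in Mll2-KO and 44940 to 50860 in double-KO libraries, against 20900 to 23570 in WT, and most of the rise of that sum came from 2 genes, Acta2 (30810 in double-KO against 12910 in WT, 1.26 ± 0.08) and Col3a1 (12630 in double-KO against 5050 in WT, 1.32 ± 0.05). In the same list Col1a2 (9.33 in double-KO against 79.5 in WT, 7.81-fold lower) and Hand1 (47.4 in double-KO against 104.6 in WT, 2.17-fold lower) fell, and the list median in double-KO was -0.24. The 12 neural markers summed to 4858 to 5584 in Mll1-KO, 3773 to 4553 in Mll2-KO and 6298 to 6804 in double-KO, against 3951 to 4468 in WT, and 9 trophectoderm markers to 27860 to 31360, 30320 to 33420 and 33100 to 36550 in those mutants, against 37730 to 39020 in WT. Called higher and lower in Mll1-KO, Mll2-KO and double-KO were 3 and 2, 4 and 5, and 4 and 6 of 10 mesoderm and fibroblast genes tested, 3 and 4, 5 and 3, and 4 and 3 of 11 neural genes, and 0 and 7, 2 and 4, and 0 and 3 of 8 trophectoderm genes. The shares of all genes called at day 4 are those given with the endoderm markers above. The part of these markers in the levels of the plasma protein genes was not tested. Together the 8 genes took 0.0252% to 0.0266% of the normalized counts in Mll1-KO, 0.0246% to 0.0287% in Mll2-KO and 0.0169% to 0.0189% in double-KO, against 0.0381% to 0.0449% in WT.

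Mttp, which loads lipid onto Apob protein, averaged 2789 at day 4 against 169 at day 0 in WT (16.4-fold, 4.03 ± 0.08, adjusted p = 5.5e-25). At day 0 A2m, a protease inhibitor of plasma, averaged 26.8 in Mll1-KO, 10.5 in Mll2-KO and 16.6 in double-KO, against 441 in WT, with adjusted p of 2.6e-09, 4.4e-11 and 1.2e-10 in that order. Gc, the vitamin D carrier of plasma, rose in Mll1-KO (136, 1.01 ± 0.21, adjusted p = 0.00073) and fell in Mll2-KO (20.7, -1.65 ± 0.21, adjusted p = 2.8e-06), against 67.2 in WT.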
